A study of Mus musculus with 6 samples.

Results

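The interferon-stimulated genes and the interferon-inducible GTPases were examined in effector CD8+ T cells (Teff) from WT and Scd-1-/- mice. The members were chosen by name, with earlier results of these data known. Their shares beside those of all tested genes are therefore descriptions and do not test the list. A list of 55 gene symbols matched 56 of the 34745 rows of the gene tables in all 6 libraries, because the symbol Gbp6 names 2 rows. They comprised 16 rows of guanylate-binding proteins (GBP, 9 rows) and immunity-related GTPases (IRG, 7 rows), which are described first, and 40 genes usually assigned to type I interferon. All 16 GTPases and 30 of the 40 type I interferon genes had a mean of at least 1 FPKM (fragments counted, divided by gene length and by the total of the library) and were tested, among 9627 tested genes. Of the 10 type I interferon genes under that level, Ifit3b and Ifi44 had at most 1 count in every library and were not detected, and the other 8 had 0 to 184 counts.

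The study compared 3 WT with 3 Scd-1-/- libraries to ask how loss of stearoyl-CoA desaturase 1, the enzyme that makes monounsaturated fatty acids, alters Teff cells. Splenic CD8+ T cells of male mice aged 6 to 8 weeks had been stimulated for 3 days with anti-CD3 (5 μg/mL), anti-CD28 (0.5 μg/mL) and IL-2 (100 U/mL), kept in IL-2 for another 3 days and harvested on day 6. The WT mice were purchased C57BL/6J animals, and the Scd-1-/- mice were the germline knockout B6.129-Scd1tm1Ntam/J, so the deletion is in every cell of the mouse. Nothing says that the groups were littermates, so genotype and source colony cannot be told apart. Nothing says either that the 3 libraries of a group came from separate mice, and p-values therefore measure the spread between libraries.

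Interferons are secreted proteins that switch on defence genes in the cells that bind them. Type I interferons act through the receptor chains Ifnar1 and Ifnar2 and the kinases Jak1 and Tyk2, which activate a factor complex that includes Stat2 and Irf9 and binds the interferon-stimulated response element (ISRE) of its target genes. Interferon-γ, a product of activated T cells, acts through Ifngr1, Ifngr2, Jak1 and Jak2, and leads to the binding of gamma-activated sites (GAS). GBP and IRG proteins are the GTPases known best as interferon-γ targets: they gather on the vacuoles in which bacteria and parasites live inside a cell and help to break them open. Many of these genes respond to both kinds of interferon, and Irf1 is an early target of interferon-γ that in turn binds ISRE-like sequences.

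The promoters of the GTPases carried both kinds of site more often than promoters at large. RefSeq windows on GRCm38.p6, from 250 bases before to 50 bases after a start site, were matched by symbol for 10 of the 15 GBP and IRG symbols and for 30 of the 40 type I interferon genes. They were searched for the ISRE core, GAAA followed by any 2 bases and by GAAA again, on either strand and for the GAS TTCNNNGAA, which reads the same on both strands. An ISRE was present in 9 of 10 GTPase promoters (90%), in 14 of 30 type I interferon promoters (46.7%) and in 3.99% of the 27025 genes with a window. A GAS was present in 6 of 10 (60.0%), 9 of 30 (30.0%) and 9.55%, and both were present in 6 of 10, 3 of 30 (10.0%) and 0.614%, respectively. Many GTPase genes are related copies of one another, so their promoters are not independent. A match is a description of the letters and does not show that a factor binds. The motifs can overlap, which occurred at 24 of 32851 start sites, Bst2 among them.

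The sequences below are shown because 4 IRG genes share the same order of sites, a GAS followed after 2 bases by an ISRE. They run 5′ to 3′ on the strand of the gene, with the matched motifs in capitals. On GRCm38 they lie on chromosome 11: Igtp at chr11:58199496-58199546 (plus strand), Irgm2 at chr11:58214887-58214937 (plus), Tgtp1 at chr11:48992299-48992349 (minus) and Tgtp2 at chr11:49064258-49064308 (minus). By GENCODE M21 the Igtp window is in no gene, whereas the Irgm2 window is intronic in Irgm2, the Tgtp1 window intronic in Tgtp1 and Olfr56, and the Tgtp2 window intronic in Olfr56.
Igtp: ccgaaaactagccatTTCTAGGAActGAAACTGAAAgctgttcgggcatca
Irgm2: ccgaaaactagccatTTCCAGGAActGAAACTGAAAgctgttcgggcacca
Tgtp1: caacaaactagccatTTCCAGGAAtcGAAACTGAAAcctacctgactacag
Tgtp2: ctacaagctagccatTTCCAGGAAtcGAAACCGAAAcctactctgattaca

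For comparison, Gbp2 (chr3:142620589-142620628, plus) had an ISRE alone, in a window of which GENCODE places 27 bases in an untranslated exon of Gbp2, and Gbp7 (chr3:142530215-142530307, plus) had 2 GAS and an ISRE. Among the type I interferon genes, Isg15 (chr4:156200860-156200911, minus) had overlapping ISRE cores and no GAS, Stat2 (chr10:128270261-128270300, plus) an ISRE, Irf1 (chr11:53769909-53769947, plus) a GAS and no ISRE, and Bst2 (chr8:71537572-71537623, minus) a GAS that runs into ISRE cores. The windows of these last 4 and of Gbp7 overlap no gene of GENCODE M21.
Gbp2: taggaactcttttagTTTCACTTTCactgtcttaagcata
Gbp7: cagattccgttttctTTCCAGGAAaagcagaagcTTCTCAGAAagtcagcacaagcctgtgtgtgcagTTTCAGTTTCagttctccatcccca
Isg15: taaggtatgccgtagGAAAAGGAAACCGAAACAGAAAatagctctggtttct
Stat2: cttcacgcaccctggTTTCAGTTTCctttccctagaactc
Irf1: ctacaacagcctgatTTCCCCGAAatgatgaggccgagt
Bst2: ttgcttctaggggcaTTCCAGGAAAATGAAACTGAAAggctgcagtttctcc

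The libraries held 14034479 to 15866216 counts. Scd1 itself was at 45.3 to 58.2 FPKM in WT and at 0.261 to 0.528 FPKM in Scd-1-/- libraries. Replicate 1 stood apart from replicates 2 and 3 in both genotypes: the count difference per gene, as chi-square per degree of freedom, was 51.3 to 62.1 for pairs with replicate 1 and 12.2 and 14.8 for the pairs without it. Counts of calls are therefore also given with the replicate number as a block and for replicates 2 and 3 alone. The latter fit had 2 libraries per group. It put 6.07% of all tested genes lower and 6.53% higher at an adjusted p under 0.05. Markers of CD8 T cells were high in every library, with a summed level of 2800 to 3500 FPKM in WT and 2910 to 3310 FPKM in Scd-1-/-. Within that list, Cd8a was lower in every Scd-1-/- library (43.2 to 47.6 against 27.9 to 36.6 FPKM, log2 fold change -0.46 ± 0.14) and Cd8b1 was lower in each replicate number (-0.30 ± 0.18), while Trbc1 (0.22 ± 0.15) and Trbc2 (0.24 ± 0.14) were higher in each. Of the natural killer markers, Klrb1c and Tyrobp were higher in every Scd-1-/- library (summed with Ncr1, 14 to 39.4 against 2.49 to 5.02 FPKM) while Ncr1, the defining one, was at 0 to 0.221 FPKM. Myeloid and dendritic markers, of which 5 of 8 exceeded 3 counts in some library, summed to 8.65 to 19.9 in WT and 12.0 to 36.5 FPKM in Scd-1-/-, with Adgre1 and Siglech at 0. Of these, Cd14 was higher in every Scd-1-/- library (11, 5 and 4 counts in WT, 28, 42 and 40 in Scd-1-/-, log2 fold change 2.41 ± 0.52), and Itgax was higher in each replicate number (1.69 ± 0.78). With the replicate block, the adjusted p (edgeR) was 0.00591 for Itgax, 0.0287 for Cd14, which had a mean under 1 FPKM and was fitted with no FPKM minimum, 0.00591 for Klrb1c, 0.0025 for Tyrobp and 0.0434 for the B cell marker Cd79b, and without it all 5 were above 0.05. Of the B cell markers, 1 of 5 (Cd79b) was above 3 counts, at 9.41 to 10.7 in WT and 3.13 to 7.90 FPKM in Scd-1-/-, and Ms4a1 and Pax5 were at 0. CD4 T cell markers, all 3 above 3 counts, summed to 0.156 to 0.672 in WT and 0.0409 to 0.103 FPKM in Scd-1-/-, and of the erythroid markers 1 of 3 (Hba-a1) was above 3 counts, at up to 0.215 FPKM. The part of these cells in the results below was not tested.

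The GBP and IRG GTPases were lower in Scd-1-/- Teff as a group. All 16 had a negative log2 fold change of Scd-1-/- over WT, against 50.1% of all tested genes, with a median of -0.94 (range -2.63 to -0.11). Some of the rows are near-identical copies or have overlapping annotations and may share reads. The 16 rows are therefore not independent readings, here and in the counts below. The median of all tested genes was 0, and 80% of them lay between -0.38 and 0.39 on the same log2 scale. The summed level of the 16 rows was 176, 326 and 344 FPKM in WT replicates 1, 2 and 3, and 84.4, 145 and 151 FPKM in Scd-1-/- replicates 1, 2 and 3. The groups did not overlap, and WT replicate 1 was much nearer to the Scd-1-/- libraries than the other WT libraries were. In bulk RNA, less RNA per cell and fewer expressing cells cannot be told apart.

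**Figure D1:**
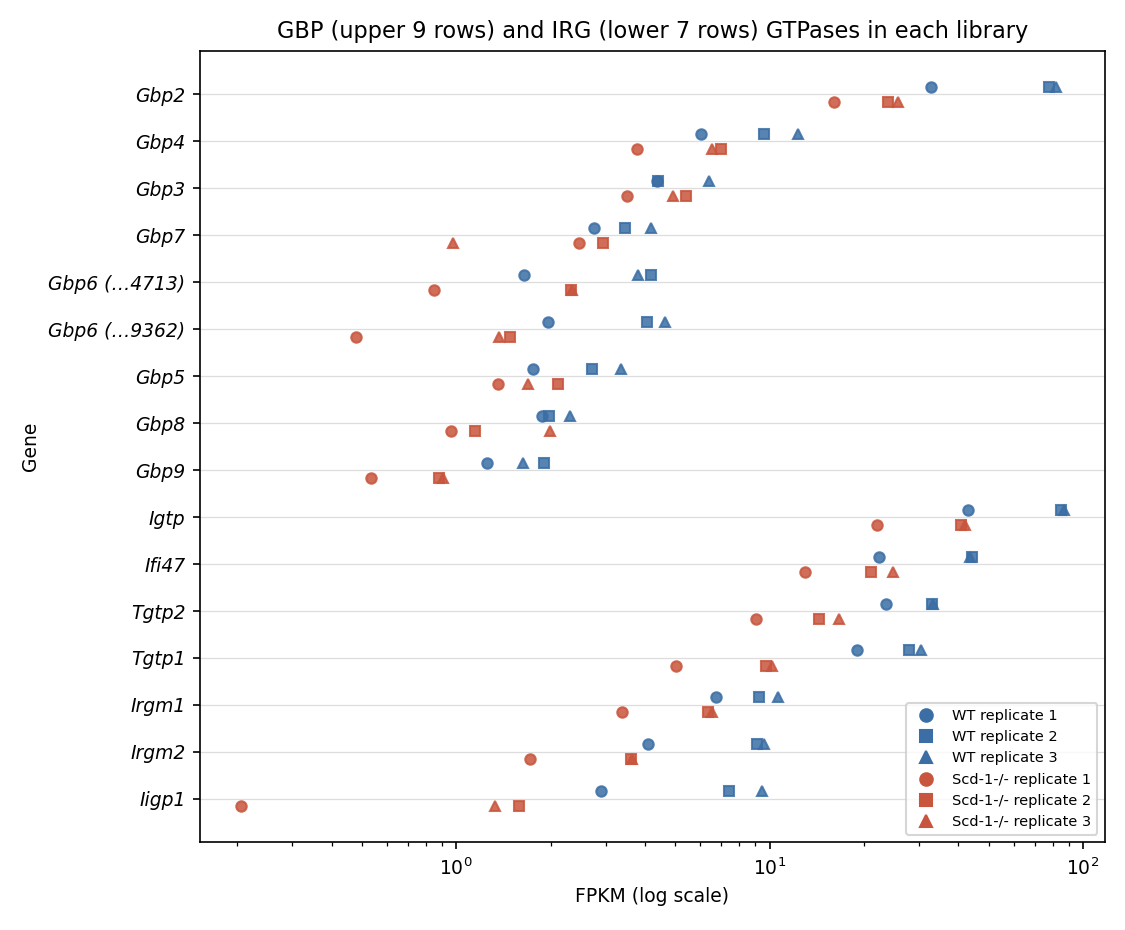
FPKM (log axis) of the 9 GBP rows and 7 IRG rows in each of the 6 libraries, with WT in blue and Scd-1-/- in red and the marker shape giving the replicate number; the last 4 digits of the identifier separate the 2 Gbp6 rows. Replicate 1 (circles) is the lowest of its genotype in both genotypes for 15 of 16 rows, and the exception is Gbp7, where replicate 3 is lowest in Scd-1-/-.

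The IRG family held the GTPase with the highest mean level, Igtp, and the one with the lowest fold change, Iigp1. Igtp (Irgm3) is a regulatory IRG protein that keeps the effector IRG proteins inactive on the cell's own membranes. It was at 42.9, 84.9 and 86.7 FPKM in WT and at 22.0, 40.8 and 41.9 FPKM in Scd-1-/- (71.5 ± 24.8 against 34.9 ± 11.2, mean ± SD, n = 3 each). Every Scd-1-/- library was below every WT library, by a log2 fold change of -1.01 ± 0.32 (SE). Irgm2, a regulator of the same kind next to Igtp on chromosome 11, was at 4.10, 9.12 and 9.56 FPKM in WT and at 1.72, 3.61 and 3.63 FPKM in Scd-1-/- (log2 fold change -1.32 ± 0.39). The annotations of Igtp and Irgm2 overlap, so how their reads were divided is uncertain. Irgm1, the regulator encoded further up the same chromosome and needed for the survival of activated lymphocytes, was at 6.72, 9.27 and 10.6 FPKM in WT and 3.38, 6.34 and 6.55 FPKM in Scd-1-/- (-0.68 ± 0.28). Its groups did not overlap, but WT replicate 1 was only just above Scd-1-/- replicate 3.

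The effector IRG proteins, which load onto pathogen vacuoles, were lower to a varying degree. Iigp1 (Irga6, chromosome 18) had the lowest fold change of all members. It was at 2.89, 7.44 and 9.42 FPKM in WT and at 0.206, 1.59 and 1.33 FPKM in Scd-1-/- (6.58 ± 3.34 against 1.04 ± 0.736, mean ± SD, n = 3 each), and its log2 fold change was -2.63 ± 0.69. Each WT library was above each Scd-1-/- library. Tgtp1 (Irgb6), first known as a T cell-specific GTPase, was at 19, 27.9 and 30.4 FPKM in WT and at 5.02, 9.77 and 10.2 FPKM in Scd-1-/-. This was 25.8 ± 6.04 against 8.34 ± 2.88 FPKM (mean ± SD, n = 3 each), and the lowest WT value was well above the highest Scd-1-/- value. Its log2 fold change was -1.60 ± 0.30.

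Tgtp2, the neighbouring copy of Tgtp1, was at 23.5, 33.0 and 33.1 FPKM in WT and at 9.07, 14.4 and 16.6 FPKM in Scd-1-/- (log2 fold change -1.14 ± 0.25). The longest transcripts of Tgtp1 and Tgtp2 were 99.8% identical, so how reads were divided between them is uncertain, and both moved the same way. Ifi47 (Irgd) was at 22.3, 44.1 and 43.5 FPKM in WT and at 13.0, 21.1 and 24.7 FPKM in Scd-1-/- (-0.87 ± 0.31). It was the IRG gene whose groups overlapped, through WT replicate 1. Irgm1, Tgtp1, Tgtp2 and Ifi47 lie together at chr11:48861968-49096974 and Igtp and Irgm2 at chr11:58199556-58222782.

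The GBP family was uneven. Gbp2, which targets pathogen vacuoles and was the most abundant GBP, was at 32.7, 77.7 and 81.8 FPKM in WT and at 16.1, 23.9 and 25.7 FPKM in Scd-1-/- (64.1 ± 27.2 against 21.9 ± 5.11, mean ± SD, n = 3 each). The groups did not overlap and the log2 fold change was -1.52 ± 0.34. Of the chromosome 3 cluster (Gbp5, Gbp7, Gbp3 and Gbp2, chr3:142493978-142638008), Gbp2 was the gene with groups that did not overlap. Gbp3 had the change nearest to 0 of all 16 GTPases, at 4.37, 4.41 and 6.42 FPKM in WT and 3.50, 5.42 and 4.90 FPKM in Scd-1-/- (-0.11 ± 0.23), and its direction turned without WT replicate 3 (0.07) or Scd-1-/- replicate 1 (0.05). Gbp5, which promotes inflammasome assembly, was at 1.76, 2.72 and 3.36 FPKM in WT and 1.36, 2.11 and 1.70 FPKM in Scd-1-/- (-0.57 ± 0.27). Gbp7 was at 2.76, 3.45 and 4.17 FPKM in WT and 2.46, 2.95 and 0.973 FPKM in Scd-1-/- (-0.68 ± 0.38), where replicate 3 alone was far below WT, and without it the log2 fold change was -0.33.

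The chromosome 5 cluster (chr5:105014150-105293698) holds Gbp8, Gbp9, Gbp4 and both Gbp6 rows. Gbp9 was at 1.25, 1.90 and 1.63 FPKM in WT and 0.533, 0.878 and 0.907 FPKM in Scd-1-/-, without overlap (-1.02 ± 0.28). Its mean in Scd-1-/- was 0.773 FPKM, so it reached the level for testing through WT. The Gbp6 row ENSMUSG00000079362, which GENCODE M21 names Gm43302 and which spans nearly the whole of the other Gbp6 row, was at 1.96, 4.07 and 4.65 FPKM in WT and 0.477, 1.48 and 1.37 FPKM in Scd-1-/-, also without overlap (-1.65 ± 0.47). The Gbp6 row ENSMUSG00000104713 overlapped between groups, at 1.64, 4.17 and 3.81 against 0.847, 2.33 and 2.34 FPKM (-0.77 ± 0.46). The transcripts of the 2 rows were 99.8% identical, and the annotations of Gbp4, Gbp8 and Gbp9 overlap one another, so the division of reads within this cluster is uncertain. Gbp4 (6.02, 9.56 and 12.3 against 3.77, 7.02 and 6.53 FPKM, -0.66 ± 0.31) and Gbp8 (1.88, 1.97 and 2.31 against 0.959, 1.15 and 1.99 FPKM, -0.56 ± 0.31) overlapped between groups. With 1 library left out, the log2 fold change ranged from -0.88 to -0.42 for Gbp4 and from -0.94 to -0.36 for Gbp8. For Gbp6 ENSMUSG00000104713 it ranged from -1.08 to -0.43.

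With edgeR's quasi-likelihood test, 1 of the 16 GTPases, Tgtp1, passed the thresholds used by the study (log2 fold changes of 1 or more in either direction with an unadjusted p under 0.001), against 0.239% of all tested genes in that direction. Its adjusted p was 0.0988 (Benjamini-Hochberg, edgeR), and 0 of the 16 had an adjusted p under 0.05, against 0.0415% of tested genes. At an unadjusted p under 0.05, 10 of 16 were lower (7 of 7 IRG, 3 of 9 GBP) against 4.68% of all tested genes. Groups did not overlap for 9 of 16 (6 of 7 IRG, 3 of 9 GBP), all lower in Scd-1-/-, against 8.32% of all tested genes. Tgtp1 lost the thresholds without WT replicate 2 or 3 or Scd-1-/- replicate 2 or 3.

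The calls depended on how replicate 1 was handled. With the replicate number as a block in the edgeR fit, 7 of 16 passed the thresholds (Gbp2, Gbp9, Gbp6 ENSMUSG00000079362, Iigp1, Irgm2, Tgtp1 and Tgtp2), against 0.717% of all tested genes, and 12 of 16 had an adjusted p under 0.05 (7 of 7 IRG, 5 of 9 GBP), against 2.06%. The adjusted p with the block (edgeR) was 0.00195 for Tgtp1, 0.00266 for Igtp, 0.00325 for Irgm2, 0.00427 for Iigp1 and Gbp2, and 0.00502 for Tgtp2. It was 0.00694 for Gbp6 ENSMUSG00000079362, 0.0086 for Ifi47, 0.0264 for Gbp9, 0.027 for Gbp6 ENSMUSG00000104713, 0.0271 for Irgm1 and 0.0296 for Gbp4 (edgeR). In replicates 2 and 3 alone, 7 of 16 passed the thresholds (1.58% of all tested genes) and 12 of 16 had an adjusted p under 0.05 (6.07%), with a median log2 fold change of -0.94. DESeq2's Wald test without a block put 6 of 16 past the thresholds (0.592% of all tested genes) and 7 of 16 at an adjusted p under 0.05 (1.09%). The block left the size of the change nearly the same and narrowed its error, as for Tgtp1, with -1.60 ± 0.30 (SE) without and -1.64 ± 0.13 with it.

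Within each replicate number, the difference between genotypes was of similar size. The median log2 ratio of Scd-1-/- over WT FPKM of the 16 GTPases was -0.98 in replicate 1, -1.06 in replicate 2 and -0.99 in replicate 3. Of 16 GTPases, 16, 15 and 16 were lower in Scd-1-/- in replicates 1, 2 and 3, against 51.1%, 50.6% and 55.9% of all tested genes, and the exception was Gbp3 in replicate 2. In all 3 numbers, 15 of 16 were lower (24.7% of all tested genes).

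**Figure D2:**
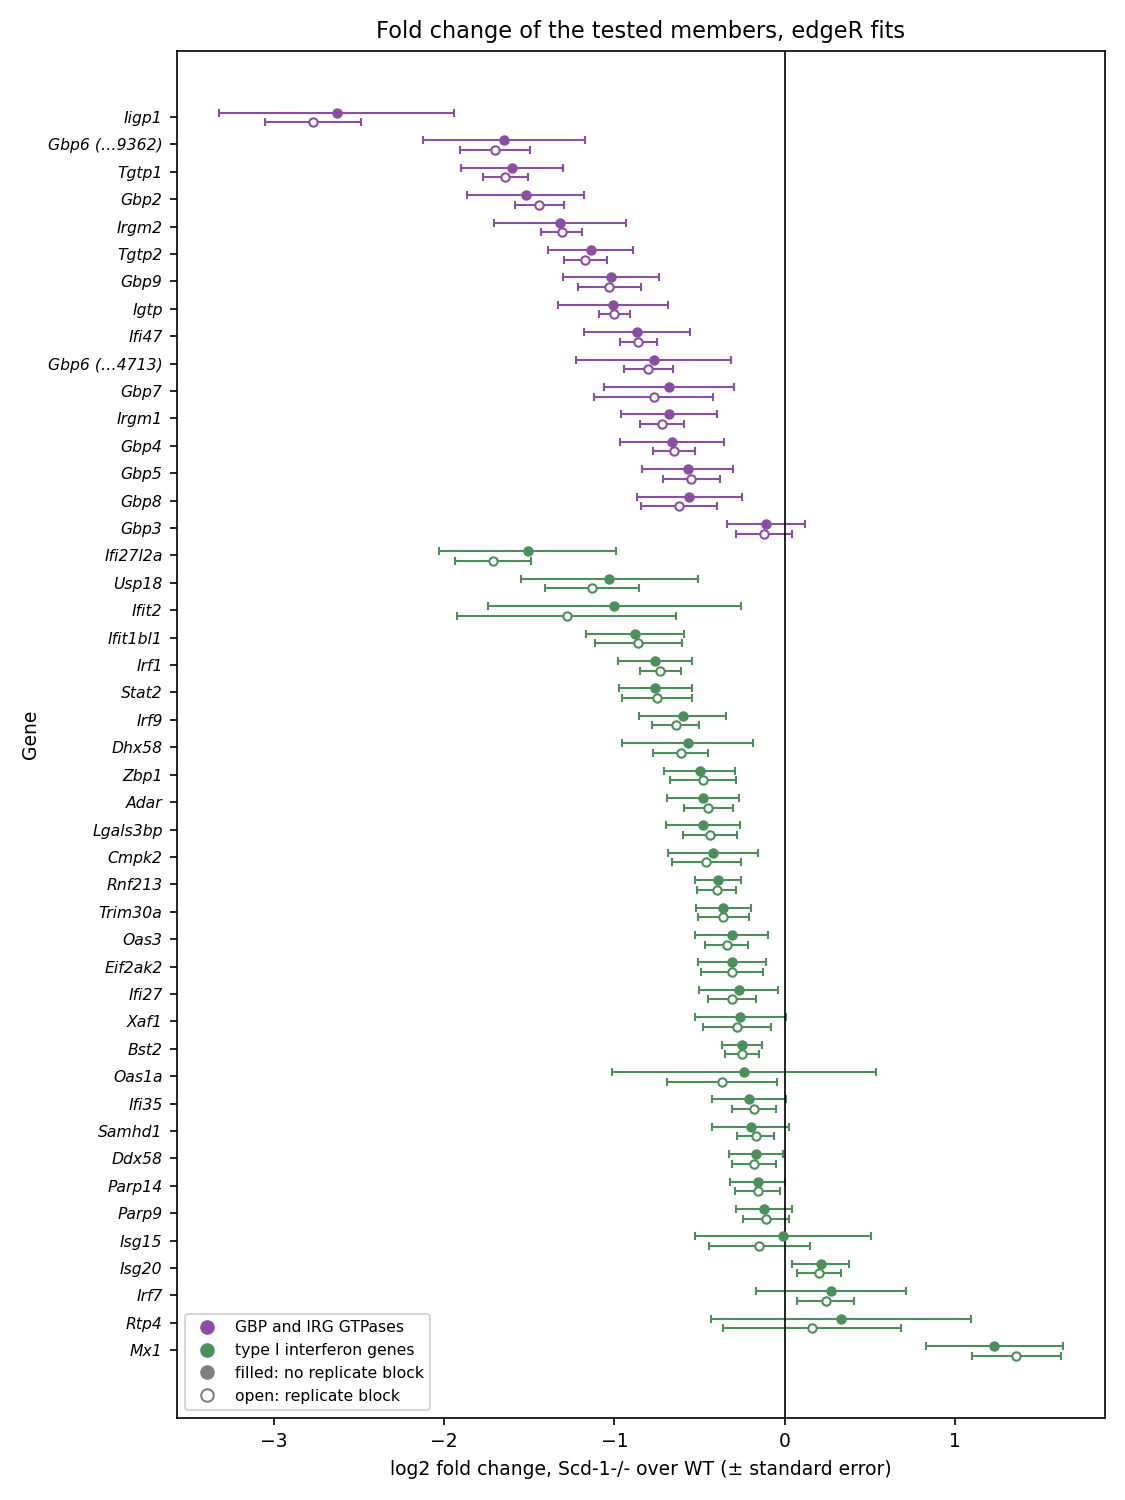
Log2 fold change of Scd-1-/- over WT with its standard error for the 46 tested members, GTPases in purple and type I interferon genes in green, from the edgeR fit without (filled) and with (open) the replicate block. All 16 GTPases lie left of 0; for Tgtp1 the error shortens from 0.30 to 0.13 with the block.

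The genes that carry the interferon-γ signal did not move as one. Ifng, the ligand, was at 17.2, 3.13 and 2.68 FPKM in WT and at 30.9, 11.6 and 11.7 FPKM in Scd-1-/-, so it was higher in Scd-1-/- in each replicate number and highest in replicate 1 of either genotype. Its log2 fold change was 1.24 ± 0.76 (adjusted p = 0.65, edgeR) and 1.57 ± 0.27 with the replicate block (adjusted p = 0.0232, edgeR). Ifngr2, the signalling chain of the receptor and its limiting part in T cells, was at 1.15, 3.21 and 2.61 FPKM in WT and at 0.275, 0.364 and 0.630 FPKM in Scd-1-/-. The groups did not overlap, with a log2 fold change of -2.42 ± 0.48 (adjusted p = 0.12, edgeR) and -2.38 ± 0.31 with the block (adjusted p = 0.0089, edgeR). Ifngr1, the ligand-binding chain, was at 141, 79.3 and 73.9 FPKM in WT and at 147, 113 and 113 FPKM in Scd-1-/- (0.36 ± 0.27), higher in Scd-1-/- in each replicate number. Its adjusted p (edgeR) was 0.737 over all libraries, 0.113 with the block and 0.00739 in replicates 2 and 3 alone. In that last fit the log2 fold change was 0.59, and 6.53% of all tested genes were called higher. Within each replicate number, Ifng and Ifngr1 thus stood higher and Ifngr2 lower in Scd-1-/-. Whether any of them bears on the GTPases was not tested.

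Of the kinases, Jak1 was at 46.4, 27.4 and 30.3 FPKM in WT and 41.3, 37.3 and 36.0 FPKM in Scd-1-/- (log2 fold change 0.15 ± 0.21). It was lower in Scd-1-/- in replicate 1 and higher in replicates 2 and 3. In replicates 2 and 3 alone its log2 fold change was 0.38 (adjusted p = 0.0422, edgeR), where 6.53% of all tested genes were called higher. Jak2 was at 6.81 to 10.2 and 6.99 to 9.14 FPKM (-0.04 ± 0.22). Socs1, the main brake on this signal, overlapped, at 13.7, 60.3 and 49.3 FPKM in WT and 16, 45.0 and 42.3 FPKM in Scd-1-/- (-0.22 ± 0.55). Socs1 was lowest in replicate 1 of both genotypes, as were 15 of the 16 GTPases, whereas Ifng was highest there.

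On the type I side, Ifnar1 was at 9.77 to 10.1 FPKM in WT and 9.34 to 10.2 FPKM in Scd-1-/- (0.02 ± 0.12), and Tyk2 at 23.8 to 30.1 and 19.2 to 28.2 FPKM (-0.12 ± 0.18). Ifnar2, the other receptor chain, was at 8.43, 10.5 and 11.3 FPKM in WT and at 6.59, 7.72 and 8.21 FPKM in Scd-1-/-, without overlap (-0.40 ± 0.16, adjusted p = 0.473, and 0.0847 with the block, edgeR). Ifnb1, Ifna4, Ifna2, Ifnk, Ifnl2 and Ifnl3, the ligands of type I and III that were looked up, had 0 counts in all 6 libraries, where a count of 0 allows up to 3 counts (0.189 to 0.214 CPM).

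**Figure D3:**
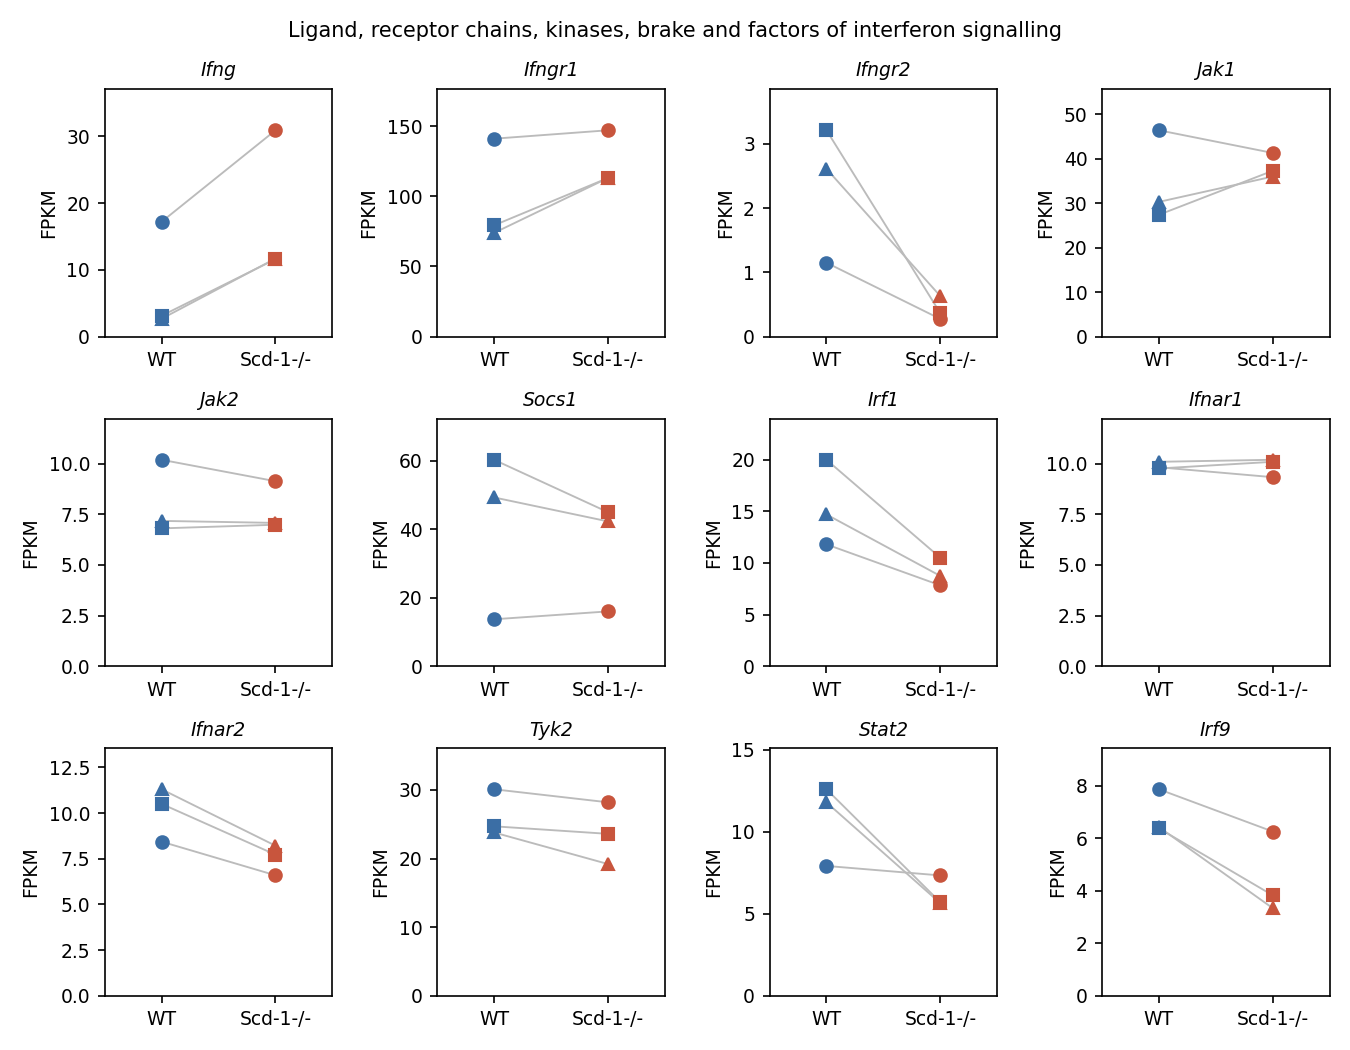
FPKM in WT (blue) and Scd-1-/- (red) of the ligand, receptor chains, kinases, brake (Socs1) and transcription factors of interferon signalling, with circle, square and triangle for replicates 1, 2 and 3 and grey lines between libraries of the same number; each vertical axis starts at 0. Ifng and Ifngr1 go up and Ifngr2, Irf1, Ifnar2, Tyk2, Stat2 and Irf9 go down from WT to Scd-1-/- within all 3 replicate numbers.

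Of the 30 tested type I interferon genes, 26 had a negative log2 fold change (50.1% of all tested genes), with a median of -0.31 and a range of -1.51 to 1.23, and 0 of the 30 passed the thresholds. The difference from the GTPases was not tested. Their summed level over all 40 genes was 762, 683 and 624 FPKM in WT and 539, 381 and 371 FPKM in Scd-1-/- replicates 1, 2 and 3. Ifi27l2a and Bst2 made the largest contributions to that sum in every library. In replicates 1, 2 and 3, 24, 27 and 26 of 30 were lower (51.1%, 50.6% and 55.9% of all tested genes), with median log2 ratios of -0.12, -0.38 and -0.60. In all 3 numbers, 22 of 30 were lower (24.7% of all tested genes).

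Among the transcription factors, Irf1 was at 11.8, 20.0 and 14.7 FPKM in WT and at 7.83, 10.5 and 8.74 FPKM in Scd-1-/-, without overlap (log2 fold change -0.76 ± 0.22, adjusted p = 0.278, and 0.0188 with the replicate block, edgeR). Stat2 was at 7.92, 12.6 and 11.8 FPKM in WT and at 7.34, 5.70 and 5.64 FPKM in Scd-1-/- (-0.76 ± 0.22). Its groups did not overlap, but the difference was small in replicate 1 (log2 ratio -0.11) and large in replicates 2 and 3 (-1.14 and -1.07). The adjusted p (edgeR) was 0.273 over all libraries, 0.0805 with the block and 0.00212 in replicates 2 and 3 alone, where 6.07% of all tested genes were called lower. Irf9, the DNA-binding partner of Stat2, which is named here because of its call with the block, was at 6.37 to 7.86 FPKM in WT and 3.33 to 6.25 FPKM in Scd-1-/- (-0.60 ± 0.26, adjusted p = 0.0441 with the block, edgeR). Stat2 and Irf9 were thus both lower in every Scd-1-/- library than in every WT library. Irf7, which amplifies type I interferon production, was at 3.92, 2.42 and 1.68 FPKM in WT and 5.20, 2.23 and 2.15 FPKM in Scd-1-/- (0.27 ± 0.44), and was the factor with a positive log2 fold change. Its groups overlapped.

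Of the 4 sensors of viral nucleic acid, 3 were tested. Zbp1, a sensor of Z-form nucleic acid, was at 4.63, 6.61 and 4.51 FPKM in WT and 3.81, 3.24 and 3.90 FPKM in Scd-1-/- (-0.50 ± 0.21), with groups that did not overlap. The difference was largest in replicate 2 (log2 ratio -1.03), and the log2 fold change was -0.3 without WT replicate 2. Dhx58 (LGP2), which tunes the RNA sensors, was at 8.98, 4.67 and 5.70 FPKM in WT and 6.65, 3.39 and 2.79 FPKM in Scd-1-/- (-0.57 ± 0.38). Dhx58 was lower in Scd-1-/- in each replicate number, although the groups overlapped, and its log2 fold change was -1.05 without Scd-1-/- replicate 1 and -0.24 without WT replicate 1.

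The Ifit genes, whose products bind foreign RNA ends, lie together at chr19:34550694-34650009, on the chromosome of Scd1 and 9.74 Mb from the near end of that gene. Their levels were low. Ifit1bl1 was at 2.20, 1.45 and 1.42 FPKM in WT and 0.874, 0.788 and 1.06 FPKM in Scd-1-/-, without overlap (-0.88 ± 0.29). Ifit2 was at 1.33, 1.71 and 1.88 FPKM in WT and 0.956, 1.40 and 0.0722 FPKM in Scd-1-/- (-1.0 ± 0.74), a change that rested on Scd-1-/- replicate 3 and was -0.46 without it. The others were under the level for testing. Ifit1 had 18, 8 and 9 counts in WT and 40, 13 and 12 in Scd-1-/-, Ifit3 had 22, 5 and 8 against 14, 3 and 14, and Ifit3b had 1, 0 and 0 in both. Ifit3 and Ifit3b transcripts were 95.3% identical, so their split is uncertain.

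The OAS enzymes, which make the oligoadenylates that activate RNase L, were represented mainly by Oas3. It was at 12.1, 11.3 and 10.1 FPKM in WT and 11.5, 8.49 and 6.66 FPKM in Scd-1-/- (-0.31 ± 0.21). Oasl2 had 13, 16 and 14 counts in WT and 6, 16 and 11 in Scd-1-/-. Neither separated the genotypes. In the ISG15 system, which attaches a ubiquitin-like tag to proteins, Isg15 itself was at 6.63, 4.90 and 3.81 FPKM in WT and 8.84, 4.13 and 2.08 FPKM in Scd-1-/-, with a log2 fold change of -0.01 ± 0.52 whose sign depended on which library was left out. Usp18, which removes the tag and restrains Ifnar2, was at 1.99, 0.930 and 1.43 FPKM in WT and 1.23, 0.329 and 0.530 FPKM in Scd-1-/- (-1.03 ± 0.52). Usp18 was lower in each replicate number, with groups that overlapped, and its log2 fold change was -1.73 when Scd-1-/- replicate 1 was left out and -0.70 when Scd-1-/- replicate 2 was. Herc6, the ligase for the tag in mice, was under the level for testing, at 0.737 to 0.936 FPKM in WT and 0.900 to 1.11 FPKM in Scd-1-/-.

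Of the 7 tested effectors, Mx1 and Isg20 were higher in Scd-1-/-. Isg20, an RNA exonuclease, was at 9.08, 9.89 and 10.0 FPKM in WT and 9.03, 12.7 and 11.3 FPKM in Scd-1-/-, with overlap (0.21 ± 0.17). Mx1 belongs to the dynamin-like GTPases, and whether these mice make a working Mx1 protein was not examined. Its RNA was at 2.83, 0.881 and 1.47 FPKM in WT and at 4.45, 3.59 and 3.98 FPKM in Scd-1-/- (1.73 ± 1.00 against 4.0 ± 0.430, mean ± SD, n = 3 each). Every Scd-1-/- library was above every WT library, with a log2 fold change of 1.23 ± 0.40 (adjusted p = 0.361, edgeR) and of 1.36 ± 0.26 with the replicate block (adjusted p = 0.0326, edgeR). It was 1.81 without WT replicate 1 and 0.91 without WT replicate 2. Bst2 (tetherin), which holds budding viruses on the cell surface, was at 152, 172 and 174 FPKM in WT and 138, 138 and 137 FPKM in Scd-1-/-. It did not overlap, although the change was small (-0.25 ± 0.12). Adar, which edits double-stranded RNA, was at 5.91, 9.81 and 9.79 FPKM in WT and 5.57, 6.80 and 5.59 FPKM in Scd-1-/- (-0.48 ± 0.21).

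Ifi27l2a had the highest mean level of the type I interferon genes over the 6 libraries, although Bst2 was above it in Scd-1-/- replicates 2 and 3, and it had the lowest fold change of the 30 tested. This small membrane protein of the ISG12 family was at 372, 248 and 200 FPKM in WT and at 180, 49.0 and 55.3 FPKM in Scd-1-/- (273 ± 88.8 against 94.7 ± 73.8, mean ± SD, n = 3 each). The groups did not overlap, and replicate 1 was the highest library of each genotype. The log2 fold change was -1.51 ± 0.52 (adjusted p = 0.386, edgeR) and -1.71 ± 0.22 with the block (adjusted p = 0.00912, edgeR). It was -2.37 without Scd-1-/- replicate 1 and -1.20 without WT replicate 1 or Scd-1-/- replicate 2. Rnf213, a giant ubiquitin ligase, was at 4.33, 4.39 and 4.66 FPKM in WT and 3.28, 3.75 and 3.02 FPKM in Scd-1-/-, without overlap (-0.39 ± 0.13). Replicate 1 was the lowest library of both genotypes for 15 of 16 GTPases and for 5 of 30 type I interferon genes (29.0% of all tested genes), and the highest of both for 0 of 16 and 13 of 30 (28.3%); the difference between the families was not tested.

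**Figure D4:**
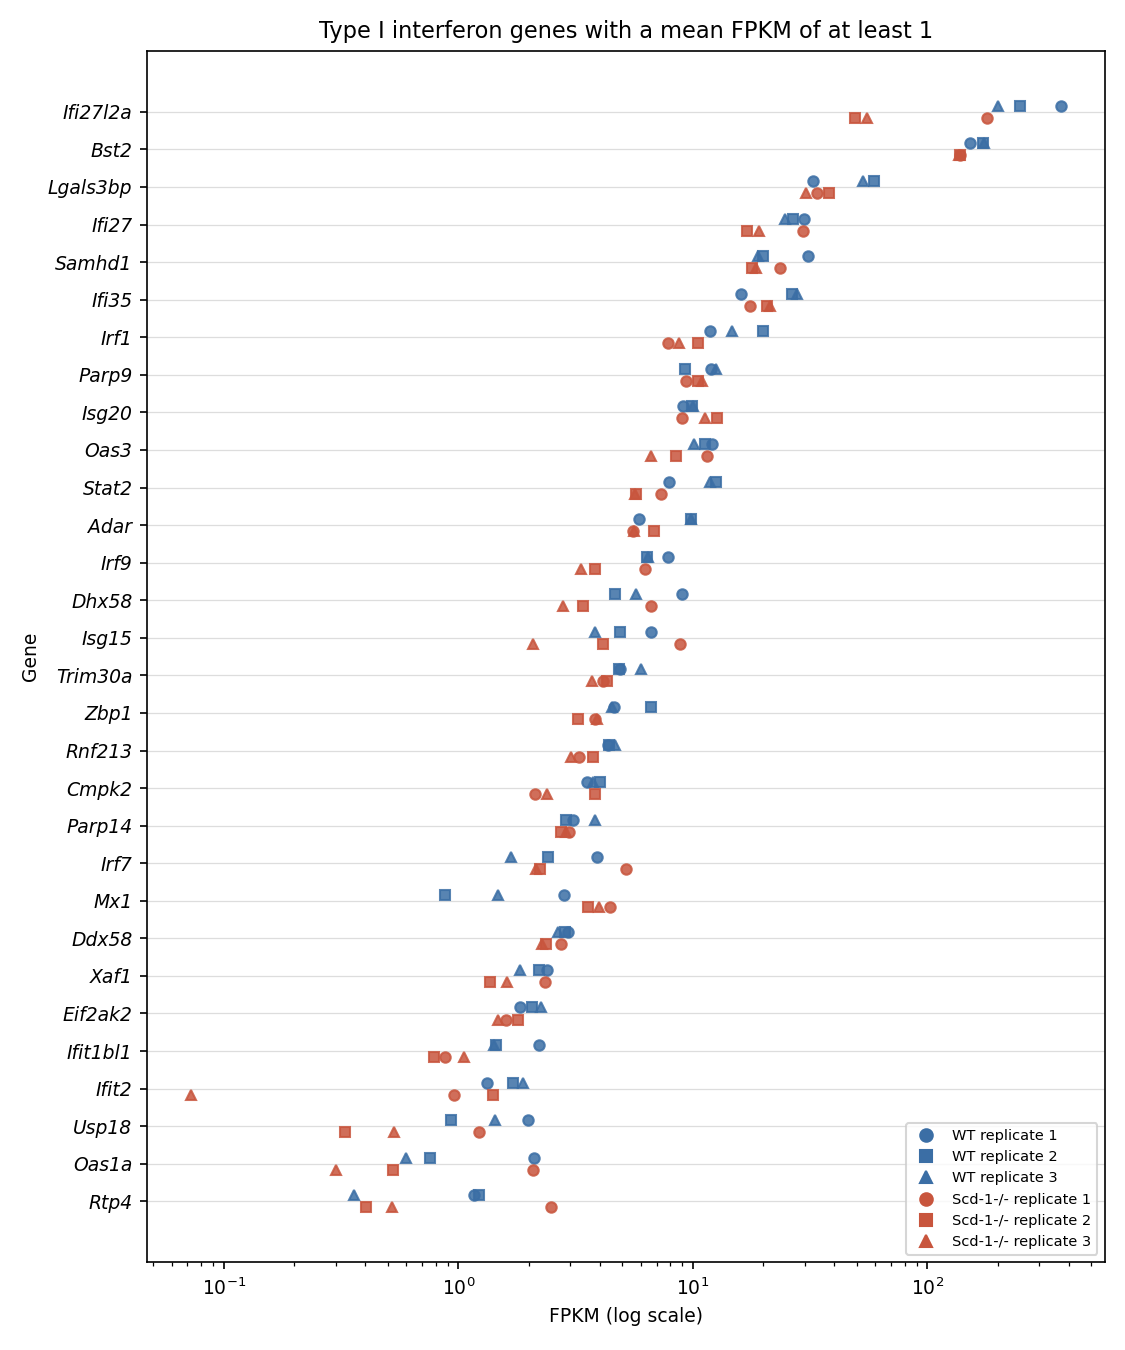
FPKM (log axis) of the 30 tested type I interferon genes in each library, ordered by mean level, with WT in blue and Scd-1-/- in red and the marker shape giving the replicate number. Ifi27l2a and Bst2 are the highest 2 genes within each library, and Mx1 is the gene with all 3 Scd-1-/- libraries to the right of all WT libraries.

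With edgeR's quasi-likelihood test, 0 of the 30 type I interferon genes passed the thresholds in either direction, against 0.239% of all tested genes lower and 0.499% higher, and 0 had an adjusted p under 0.05 (0.0415% and 0.0727%). At an unadjusted p under 0.05, 7 were lower (4.68% of all tested genes) and 1, Mx1, was higher (5.42%). DESeq2's Wald test put 0 of the 30 past the thresholds (0.592% of all tested genes lower, 1.08% higher) and 0 at an adjusted p under 0.05 (1.09% and 1.67%). Groups did not overlap for 10 genes lower (8.32%) and 1 higher (7.67%). With the replicate block, 1 passed the thresholds lower (Ifi27l2a, against 0.717%) and 1 higher (Mx1, against 1.19%), and 3 were lower at an adjusted p under 0.05 (Irf1, Irf9 and Ifi27l2a, against 2.06%) and 1 higher (Mx1, against 2.64%). In replicates 2 and 3 alone, 2 passed the thresholds lower and 1 higher (1.58% and 2.25% of all tested genes), 8 were lower and 1 higher at an adjusted p under 0.05 (6.07% and 6.53%), and the median log2 fold change was -0.46.

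**Figure D5:**
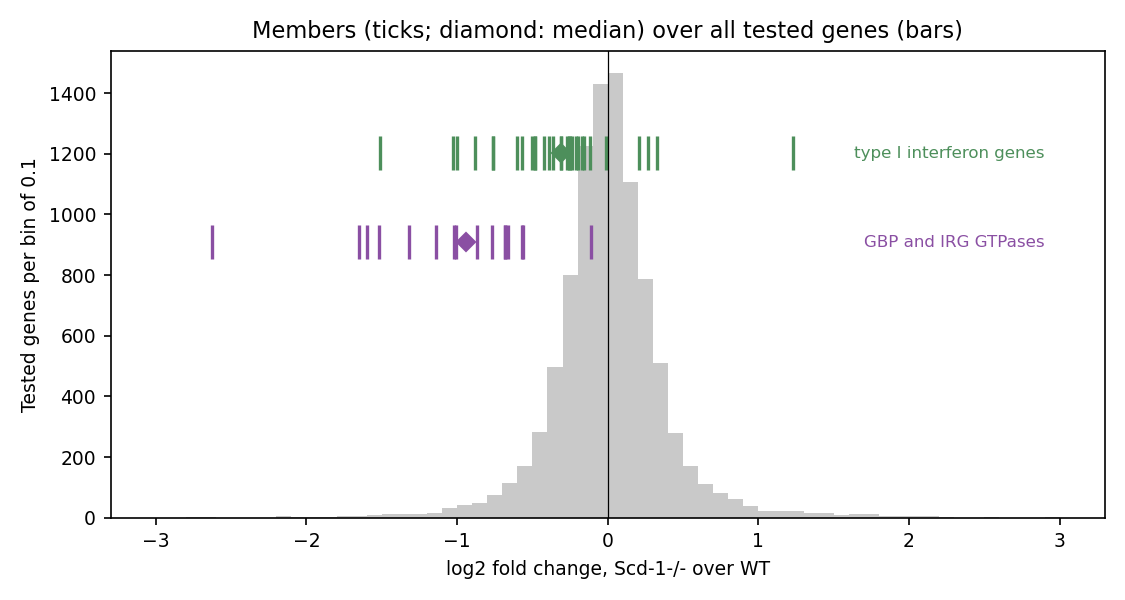
Number of tested genes per bin of log2 fold change, Scd-1-/- over WT (grey bars, shown from -3 to 3), with a tick for each tested GTPase (purple) and type I interferon gene (green) and a diamond at each median. The GTPase median is at -0.94 and the type I median at -0.31, while 80% of all tested genes lie between -0.38 and 0.39.

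Other genes of the interferon pathways, 56 of which were tested, had a median log2 fold change of -0.14 and none past the thresholds, and 34 of 56 were lower (50.1% of all tested genes). With DESeq2's Wald test 2 passed, both lower (0.592%), and at an unadjusted p under 0.05 in edgeR 11 were lower (4.68% of all tested genes) and 2 higher (5.42%). With the replicate block, 2 passed lower, Ifngr2 among them (0.717% of all tested genes), and 1 higher (Ifng, 1.19%), and at an adjusted p under 0.05, 5 were lower (2.06%) and 1 higher (2.64%). Irf4, a factor induced by T cell receptor signalling, was at 38.8, 47.3 and 50.3 FPKM in WT and 20.1, 30.9 and 26.6 FPKM in Scd-1-/- (-0.79 ± 0.18, adjusted p = 0.177, and 0.00912 with the block, edgeR). Tap1, the peptide transporter of MHC class I loading, was at 37.1 to 46.4 FPKM in WT and 22.0 to 35 FPKM in Scd-1-/- (-0.62 ± 0.20, adjusted p = 0.35, and 0.0208 with the block, edgeR). Both were without overlap between the groups.

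In the other direction, Irf5 was at 4.42, 5.88 and 5.27 FPKM in WT and 10.7, 10.0 and 6.32 FPKM in Scd-1-/- (0.82 ± 0.23). Pyhin1, a nuclear protein of the interferon-inducible p200 family, was at 2.63 to 6.07 FPKM in WT and 7.13 to 7.41 FPKM in Scd-1-/- (0.84 ± 0.30). Znfx1, an RNA-binding helicase, was lower, at 2.54 to 3.14 against 1.47 to 2.24 FPKM (-0.53 ± 0.20). Of the GBP genes outside the member list, Gbp11 had 29, 39 and 32 counts in WT and 13, 15 and 13 in Scd-1-/-, and Gbp10, whose transcript was 98.4% identical to the Gbp6 row ENSMUSG00000079362, had 18, 52 and 80 against 4, 21 and 17 counts. Cxcl10, the chemokine induced by interferon-γ, had 15, 8 and 19 counts in WT and 3, 5 and 5 in Scd-1-/-. All 3 genes were under the level for testing. Gbp11 and Cxcl10 had groups that did not overlap. Gbp10 overlapped through WT replicate 1 but was lower in Scd-1-/- in each replicate number.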

How the data were processed

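Counts and FPKM of CD8+ Teff RNA-seq were analysed in 3 WT and 3 Scd-1-/- libraries, grouped by genotype in the labels. The authors aligned reads with HISAT2 and quantified genes with StringTie 1.3.0 on GRCm38, per the labels and the study's methods, and deposited the raw count per gene. The authors also deposited FPKM, the count scaled to gene length and library total. The treatment of multi-mapping reads is not given in the sources used here. The methods name a stranded total RNA kit and the labels poly(A) RNA and another kit, so whether counting used strand is uncertain.

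Counts were tested with edgeR 4.0.16 (R 4.3.3), TMM scaling (factors 0.986 to 1.03), quasi-likelihood F tests, no block, and genes averaging 1 FPKM or more (9627), with Benjamini-Hochberg adjustment over all tested genes. Values of genes below that came from a second fit, over every gene with a count. Genes such as Gbp9, Ifngr2, Usp18, Ifit1bl1 and Ifit2 averaged under 1 FPKM in Scd-1-/- and were tested through their WT level. Rtp4 was tested through its Scd-1-/- level. SE is the size of the log2 fold change divided by the square root of F. No exact permutation test was run, since with 3 libraries per group its smallest p is 0.1. The libraries held 14034479 to 15866216 counts. A count of 0 allows up to 3 counts, which covers counting error only. No replicates were duplicates of one another by chi-square. The procedure was tested on simulated data.

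Whether replicate numbers pair the libraries was checked from the correlation of deviations from the group means over the 9627 genes. Same-numbered libraries had r of 0.595, 0.306 and 0.470, all above 0.1, so the numbers were taken as pairs. Between replicates 2 and 3 the crossed r were 0.180 and 0.380, also above 0.1. The rule therefore sets replicate 1 apart but cannot tell how the libraries of replicates 2 and 3 pair. Genes are not independent replicates, and no source says what a number stands for. Blocked values are given for most of the named genes whose call the block changes, and not for every such gene.

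The members and the lists of further pathway genes and markers were chosen with earlier results of these data known. The text names every GBP and IRG gene and every Ifit gene. Of each other role class it names members past the thresholds, the 2 with the smallest unadjusted p, the most abundant one and those with at most 3 counts. It also names a fixed set of signalling genes, of which 1 is not reported here, and further pathway genes with an unadjusted p under 0.05 and a change of at least 0.5. Marker genes are named from lists of their own. Irf7, Irf9, Isg20 and the Apol9 genes are named outside this rule, chosen after their values were seen. Alternatives were an FPKM minimum of 5 or none, DESeq2 1.42.0 size factors or Wald test, limma 3.58.1 on log2(FPKM + 1) or log2(FPKM + 0.1), the replicate block, replicates 2 and 3 alone, and 6 fits that each left out 1 library. Positions and transcripts are from GENCODE M21 and promoters from RefSeq (GRCm38.p6).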

Additional observations from a re-analysis of the deposited data

How the results depend on the processing

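The direction of the GTPases held: all 16 were lower in Scd-1-/- in each full fit (8 of 8 with an FPKM minimum of 5), and Gbp3 turned in 2 leave-one-out fits. The median log2 fold change lay between -1.14 and -0.78 when 1 library was left out, and that of the type I interferon genes between -0.49 and -0.26. The counts past the thresholds were not stable. For the GTPases (1 of 16) the count was 3 without an FPKM minimum, 6 with DESeq2's Wald test, 7 with the replicate block and 7 in replicates 2 and 3 alone, and 0 to 2 when 1 library was left out (2 without WT replicate 1, 0 without WT replicate 2 or 3 or Scd-1-/- replicate 2 or 3). For the type I interferon genes (0 of 30) it was 2 with the replicate block, 3 in replicates 2 and 3 alone and 0 to 1 in leave-one-out fits (1 without WT replicate 1, Mx1, or without Scd-1-/- replicate 1, Ifi27l2a). For further pathway genes (0 of 56) it was 1 without a minimum, 2 with DESeq2, 3 with the block, 4 in replicates 2 and 3 alone and 0 to 3 in leave-one-out fits (3 without WT replicate 1, 0 in the others). For all tested genes (71) it was 148, 161, 184 and 369 in the same order, 43 with a minimum of 5, and 25 (without WT replicate 2) to 163 (without Scd-1-/- replicate 1). Ifng, not past the thresholds in any leave-one-out fit, had log2 fold changes of 2.67 without WT replicate 1 and 0.60 without Scd-1-/- replicate 1. The cause was not tested. The replicate block changed no direction among the genes named.

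Signs turned for genes near 0: Ifit3 (0.32 in replicates 2 and 3 alone, -0.56 to 0.56 in leave-one-out fits), Jak2 (0.04, and -0.18 to 0.18), and, in leave-one-out fits, Isg15 (-0.71 to 0.36), Gbp3 (-0.25 to 0.07), Ifnar1 (-0.01 to 0.06), Tyk2 (-0.27 to 0.01) and Socs1 (-0.63 to 0.17). Depth limits the genes with fewer than about 20 counts, such as Ifit3, Oasl2 and Cxcl10, to a description.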

Other observations

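Apolipoprotein genes of the interferon-inducible Apol9 pair, picked out after their values were seen, were present almost entirely in replicate 1 of both genotypes. Apol9b was at 6.02, 0.0922 and 0 FPKM in WT replicates 1, 2 and 3 and at 7.07, 0.184 and 0 FPKM in Scd-1-/- replicates 1, 2 and 3. Apol9a had 47, 0 and 0 counts in WT and 29, 0 and 2 counts in Scd-1-/-. Neither separated the genotypes, and within replicate 1 the WT and Scd-1-/- levels of Apol9b were close. What the replicate numbers stand for is not given in the sources used here, and the reason for the difference between replicate 1 and the others was not tested.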
